A study of Mus musculus with 6 samples.

Results

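Feedback inhibitors of the ERK pathway were examined in the transcriptomes of cold-acclimated T cells: the dual-specificity phosphatases Dusp1, Dusp2, Dusp4, Dusp5, Dusp6 and Dusp10, the Sprouty proteins Spry1 and Spry2, and the Sprouty-related proteins Spred1 and Spred2. Members were found by an exact match of their gene symbol, which took 10 of the 41079 genes listed in the deposited table. A level above 0 was found for 9 of the 10, and the same 9 were among the 12227 genes that passed a filter on low values (a mean over the 6 libraries of at least 1 TPM, a transcript level per length and per library total). The remaining member, Spry1, was listed at 0 TPM in each of the 6 libraries.

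Poly(A)+ RNA was sequenced from D10 (D10.G4.1), a single cloned mouse helper T cell line that recognises a conalbumin peptide on I-Ak. Cells kept for 24 h at 26°C (cold-acclimated, 3 replicates) were compared with cells kept for 24 h at 37°C (non-acclimated, 3 replicates), which addresses how gene expression differs after cold acclimation. Both conditions share the line and its medium, given as RPMI 1640 in the labels and as DMEM with IL-2 in the methods, and no genetic change, antigen or drug separates them. The labels call each replicate a separate experimental batch of RNA extraction, described as old or new, without assigning the batches to libraries.

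The 6 libraries held between 16899621 and 31290802 reads, as recovered from the TPM steps. Of 14 T cell marker genes, 12 passed the filter, and limma and voom called 0 in either direction (1 marker, Lat, was higher at an unadjusted p under 0.05). However, Cd4, which the label CD4+ would require, was listed at 1.09, 0.0351 and 310 TPM in non-acclimated replicates 1 to 3 and at 1.30, 0.352 and 328 TPM in cold-acclimated replicates 1 to 3. Replicate 3 therefore stood apart by Cd4, and replicate 2 stood apart in both conditions by low levels of some other T cell genes, but not of all. Trac, the constant part of the receptor alpha chain, was at 207, 15.0 and 185 TPM at 37°C and at 184, 12.8 and 129 TPM at 26°C. Cd3d and Cd28 were also lowest in replicate 2, at 64.3 and 7.35 TPM at 37°C and at 78.6 and 5.61 TPM at 26°C, against 240 TPM or more and 27.9 TPM or more in the other libraries. Lat was instead highest in replicate 2, at 658 TPM at 37°C and 1171 TPM at 26°C. Cd3e was lowest in replicate 3 at 26°C, and Cd3g was lowest in replicate 3 in both conditions. Cd5, a T cell marker that did not pass the filter, was at 0.0454 TPM in cold-acclimated replicate 3 and at 0 TPM in every other library. Markers of B cells summed to between 1.02 and 3.77 TPM over 10 genes, with Ms4a1 listed at 0 TPM in every library. Markers of macrophages summed to between 2.90 and 21.6 TPM over 10 genes, of which Lyz2 gave 11.6 and 14.8 TPM in replicate 3 of the 2 conditions, while Csf1r was at 0.0253 TPM or less in every library. The part of each replicate in the results below is given by values without it.

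ERK is the last kinase of a cascade that runs from Ras through Raf and MEK, and in T cells it carries signals from the T cell receptor and from cytokine receptors to the nucleus. Active ERK induces genes whose products then switch the pathway off. Dual-specificity phosphatases remove the phosphates from the activation loop of MAP kinases: Dusp1, Dusp2, Dusp4 and Dusp5 act in the nucleus and are made on stimulation, Dusp6 acts on ERK in the cytoplasm, and Dusp10 acts mainly on p38 and JNK. Sprouty proteins act further up, between receptors and Raf, and Spred proteins bring the Ras GTPase-activating protein neurofibromin (Nf1) to the membrane.

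At the level of the whole set, 1 of the 9 tested members, Spred1, was called higher at 26°C and 0 were called lower. A call required an adjusted p under 0.05 in limma and a log2 fold change with a size of 1 or more, and over all tested genes 2.63% were called higher and 16.0% lower. At an unadjusted p under 0.05, limma found 4 members higher (Dusp4, Dusp6, Spred1 and Spred2), against 7.75% of all genes, and 0 lower, against 30.0%. Voom on the recovered reads called 2 members higher (Spred1 and Spred2), against 3.34% of all genes, and 0 lower, against 13.9%. The members' median log2 fold change was 0.72, against -0.34 over all 12227 genes, and 7 of the 9 members lay above the median of all genes. With the libraries rescaled by the median of ratios, the median of all genes moved from -0.34 to 0.03, so changes were also read relative to it. Relative to the median of all genes, the members' median was 1.06 as deposited, 1.05 after median of ratios scaling and 0.95 after quantile normalization. The members and the lists below were chosen with earlier results of these data known, so these comparisons with all genes are descriptions only.

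Agreement between replicates was read in the same way. Higher levels at 26°C in all 3 replicates were found for 5 members, Dusp4, Dusp6, Spry2, Spred1 and Spred2, against 18.2% of all tested genes. Lower levels in all 3 were found for 1 member, Dusp1, against 47.9% of all tested genes. Every cold-acclimated library lay above every non-acclimated one for 3 members, Dusp6, Spred1 and Spred2, against 9.69% of all genes, and below for 1, Dusp1, against 31.4%. With the replicate number as a block, which the pairing of the libraries allows, limma called 2 members higher, Spred1 and Dusp4, against 3.75% of all genes, and 0 lower, against 21.9%.

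**Figure D1:**
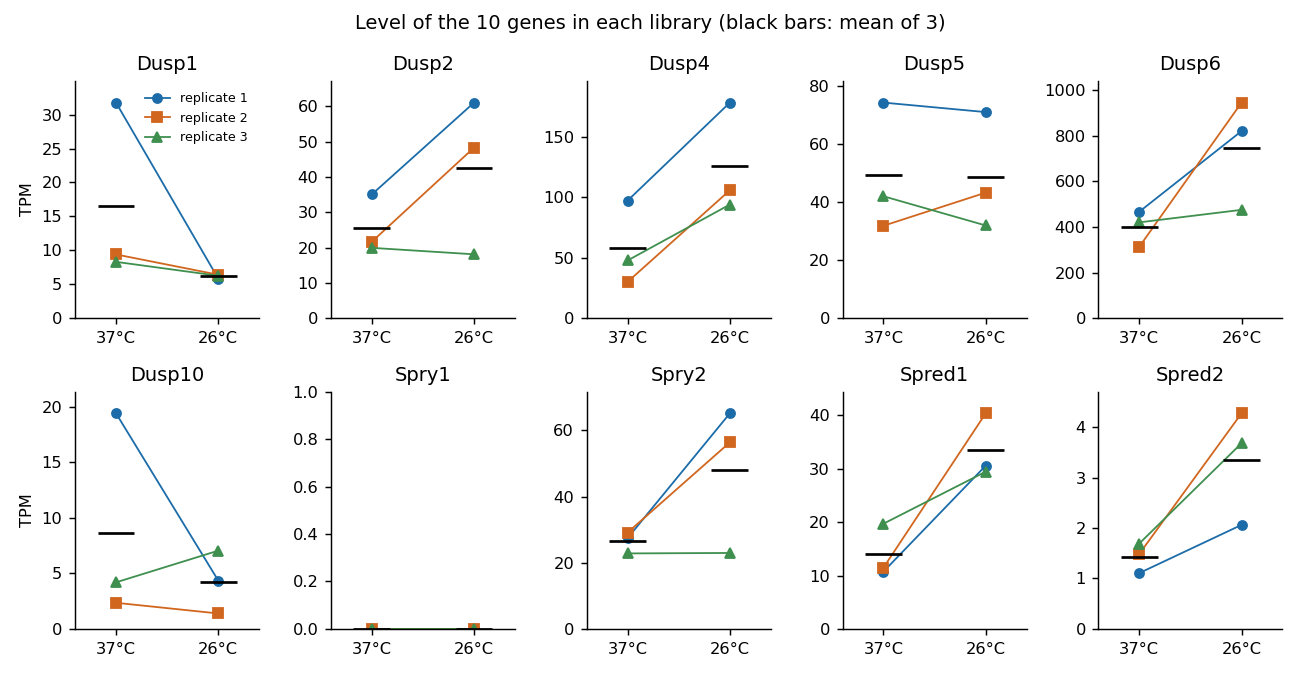
TPM of each of the 10 members in every library, on linear axes from 0 that differ between panels, with 37°C on the left and 26°C on the right; lines join libraries with the same replicate number and black bars mark the mean of 3 libraries. The lines of all 3 replicates go up for Dusp4, Dusp6, Spry2, Spred1 and Spred2 and down for Dusp1, and the 2 conditions do not overlap for Dusp1, Dusp6, Spred1 and Spred2.

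Spred1, which restrains Ras through neurofibromin, was the 1 member called higher as deposited and without the replicate block. With the block, limma called both Spred1 (adjusted p = 0.018) and Dusp4 (0.013). The levels of Spred1 were 10.7, 11.5 and 19.7 TPM in non-acclimated replicates 1 to 3 and 30.6, 40.4 and 29.4 TPM in cold-acclimated replicates 1 to 3. The lowest cold-acclimated library was thus above the highest non-acclimated one, and the level was higher in 3 of 3 replicates, least in replicate 3. The mean went from 14.0 ± 4.98 to 33.5 ± 6.01 TPM (SD, n = 3 each), a 2.36-fold difference on the scale of log2(TPM + 1). The log2 fold change was 1.24 (SE 0.30, 95% interval 0.54 to 1.93), with an adjusted p of 0.028 in limma, and each library held between 520 and 2568 reads of the gene. The call did not hold without a filter on low values (limma adjusted p = 0.055), nor without non-acclimated replicate 1 (0.094) or 2 (0.108) or cold-acclimated replicate 1 (0.085) or 2 (0.0997). It was also lost without replicate 1 (0.232) or replicate 2 (0.291) in both conditions, where limma called 0 of all tested genes. In a bulk sample, fewer cells with a transcript and less of it per cell cannot be told apart, here and for every gene below.

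Spred2, the relative of Spred1 with the same partner, was present at a low level per length. It was measured at 1.11, 1.49 and 1.69 TPM at 37°C and at 2.06, 4.28 and 3.68 TPM at 26°C. All cold-acclimated libraries lay above all non-acclimated ones, but the difference did not pass the thresholds, with a log2 fold change of 0.81 (SE 0.32, 95% interval 0.06 to 1.55) and a limma adjusted p of 0.108. With a pseudocount of 0.1 limma gave 1.13 with an adjusted p of 0.119, and neither the replicate block (0.051) nor median of ratios scaling (0.052) gave a call. On the recovered reads, which numbered between 288 and 1460 per library, voom gave a log2 fold change of 1.29 and an adjusted p of 0.036, and quantile normalization gave 1.36 and 0.035 in limma. The gene length used by the authors, as read from the TPM steps, was 37937 bases for Spred2 against 7066 for Spred1, and the low TPM of Spred2 rests on it.

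Neurofibromin, the partner of both Spred proteins, did not pass the thresholds. Nf1 was measured at 9.90, 8.42 and 5.96 TPM at 37°C and at 13.1, 11.6 and 7.05 TPM at 26°C, and the conditions overlapped (log2 fold change 0.33, limma adjusted p = 0.494). The ratio of Spred1 to Nf1 within a library was 1.08, 1.36 and 3.31 at 37°C and 2.34, 3.49 and 4.18 at 26°C. It was higher at 26°C in 3 of 3 replicates, but the conditions overlapped, and a two-sided exact permutation test gave p = 0.2, where 3 libraries against 3 cannot go below 0.1.

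Among the Sprouty genes, only Spry2 gave reads in quantity. Spry2, an inhibitor of receptor-driven Ras and Raf activation, was at 27.5, 29.1 and 22.8 TPM at 37°C and at 65.2, 56.4 and 23.0 TPM at 26°C. Replicates 1 and 2 were well above their partners at 26°C, with log2 differences of 1.22 and 0.93, while replicate 3 differed by 0.01. The log2 fold change of 0.72 (SE 0.40, 95% interval -0.20 to 1.64) did not pass the thresholds in limma (adjusted p = 0.228). Without replicate 3 in both conditions it was 1.07 with a limma adjusted p of 0.015. Without replicate 1 in both conditions it was 0.47 (limma adjusted p = 0.635), and without replicate 2 it was 0.61 (0.595). Outside the rule for named genes, Spry3 was listed at 0 TPM in all 6 libraries, like Spry1, where 0 reads allow up to 3 per library by counting error alone, and Spry4 reached 0.00944 TPM in 1 library.

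Dusp6, the cytoplasmic phosphatase of ERK, had the highest level per length of all members in every library. It was measured at 467, 313 and 420 TPM at 37°C and at 820, 945 and 475 TPM at 26°C. The conditions did not overlap, but only narrowly, since replicate 3 at 26°C (475 TPM) was close to replicate 1 at 37°C (467 TPM). The mean was 400 ± 78.8 TPM at 37°C and 747 ± 243 TPM at 26°C (SD, n = 3 each), and each library held between 8273 and 27341 reads of the gene. The log2 fold change was 0.86 (SE 0.32, 95% interval 0.12 to 1.6) and did not pass the thresholds (limma adjusted p = 0.092). After median of ratios scaling it was 1.27 with a limma adjusted p of 0.048, and without replicate 3 in both conditions it was 1.20 with 0.025, both past the thresholds. It did not pass them with quantile normalization (0.75, limma adjusted p = 0.159) or with the replicate block (0.86, 0.053). Nor did it pass without replicate 1 (0.88, 0.329) or replicate 2 (0.49, 0.566) in both conditions.

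Mapk3, which encodes ERK1, a substrate of Dusp6, was at 137, 119 and 53.5 TPM at 37°C and at 59.8, 52.6 and 48.4 TPM at 26°C. The difference had the opposite sign to that of Dusp6 and did not pass the thresholds (log2 fold change -0.83, limma adjusted p = 0.140). Against Mapk3 within the same library, Dusp6 was 3.40, 2.64 and 7.85 times as high at 37°C and 13.7, 18.0 and 9.82 times as high at 26°C, without overlap. A two-sided exact permutation test of the ratio gave p = 0.1, the smallest p that 3 libraries against 3 allow.

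A noncoding gene on the opposite strand, Gm34921, named for its position and not by the rule for named genes, overlaps 306 bases at the 3' end of Dusp6. Its level was 38.9, 12.2 and 22.3 TPM at 37°C and 57.0, 51.7 and 21.7 TPM at 26°C (log2 fold change 0.83, limma adjusted p = 0.267). The libraries kept the strand, but the strand setting of the counting is not given in the sources used here, so reads in the shared bases may have been counted for either gene.

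Of the nuclear phosphatases, Dusp4, which acts on ERK and JNK, had the largest positive difference. Its levels were 97.3, 30.1 and 47.8 TPM at 37°C and 178, 106 and 94.0 TPM at 26°C. The level at 26°C was higher in 3 of 3 replicates, with log2 differences of 0.87, 1.78 and 0.96, although non-acclimated replicate 1 exceeded cold-acclimated replicate 3. The log2 fold change was 1.20 (SE 0.45, 95% interval 0.16 to 2.25). It did not pass the thresholds without the block (limma adjusted p = 0.093) and passed them with it (0.013).

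Dusp1, which acts on p38 and JNK as well as ERK, lay on the other side. It was measured at 31.8, 9.40 and 8.30 TPM at 37°C and at 5.83, 6.41 and 6.26 TPM at 26°C. Every cold-acclimated library lay below every non-acclimated one, and the 3 cold-acclimated libraries were close together (6.17 ± 0.298 TPM, SD, n = 3) where the non-acclimated ones were not (16.5 ± 13.2 TPM). The log2 fold change of -1.04 (SE 0.48, 95% interval -2.15 to 0.08) did not pass the thresholds (limma adjusted p = 0.157), and without non-acclimated replicate 1 it was -0.46. The gene rested on 98 to 423 reads per library. Within a library, Dusp4 was 3.06, 3.21 and 5.75 times as high as Dusp1 at 37°C and 30.6, 16.5 and 15.0 times as high at 26°C, a pair set side by side after their values were seen.

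Dusp2, a phosphatase of ERK and p38 that is abundant in blood cells, was at 35.1, 21.7 and 19.9 TPM at 37°C and at 61.1, 48.3 and 18.1 TPM at 26°C. As for Spry2, replicates 1 and 2 were higher at 26°C (log2 differences 0.78 and 1.12) and replicate 3 was not (-0.13), and the log2 fold change of 0.59 (SE 0.46) did not pass the thresholds (limma adjusted p = 0.396). Dusp5, a phosphatase selective for ERK, was at 74.4, 31.9 and 42.1 TPM at 37°C and at 71.1, 43.3 and 32.0 TPM at 26°C. The 2 conditions covered nearly the same range, and the log2 fold change was -0.01 with a 95% interval of -0.94 to 0.93 (limma adjusted p = 0.993). With the replicate block the interval was -0.56 to 0.55, so a difference of either sign within it remains possible for Dusp5. The sign turned under median of ratios scaling (0.40).

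Dusp10, the phosphatase of p38 and JNK, was the most variable member. Its levels were 19.4, 2.35 and 4.19 TPM at 37°C and 4.36, 1.39 and 7.04 TPM at 26°C. The replicates went different ways, with log2 differences of -1.93, -0.49 and 0.63. The log2 fold change was -0.60 (SE 0.72, 95% interval -2.28 to 1.09, limma adjusted p = 0.591), and it turned to 0.17 without non-acclimated replicate 1.

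**Figure D2:**
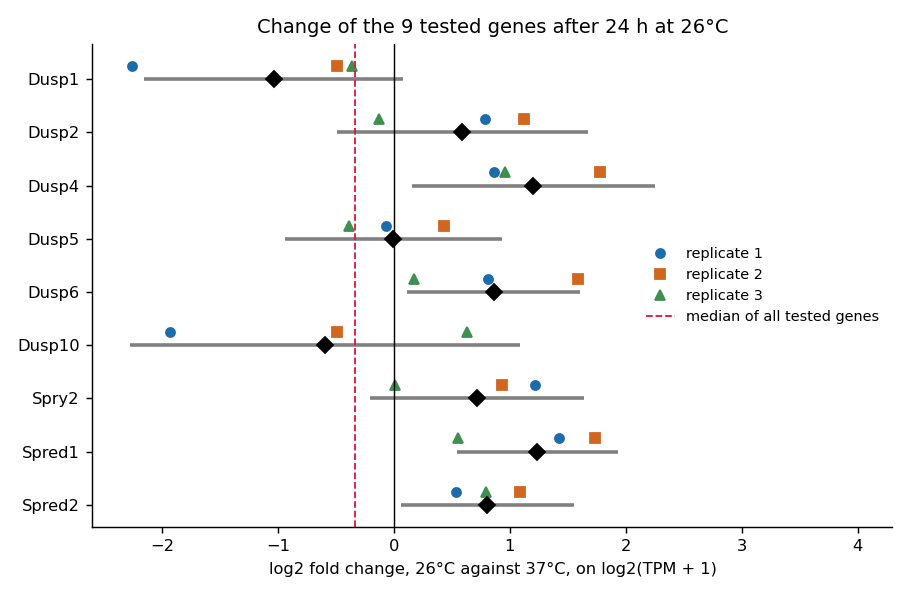
Log2 fold change of the 9 tested members on the scale of log2(TPM + 1), with 26°C against 37°C on the horizontal axis; diamonds are the limma estimate, bars its 95% interval, small symbols the difference within each replicate number and the dashed line the median of all tested genes. Spred1 lies highest at 1.24 and Dusp1 lowest at -1.04, and the replicate 3 symbol is the lowest of the 3 for Dusp2, Dusp5, Dusp6, Spry2 and Spred1.

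Replicate 3 showed smaller differences than the other replicates for several members. The members' median log2 difference was 0.78 in replicate 1, 1.08 in replicate 2 and 0.18 in replicate 3, beside medians of -0.32, -0.44 and -0.24 over all tested genes. The median size of the difference over all tested genes was also smallest in replicate 3, at 0.47 against 0.68 and 0.74. Without replicate 3 in both conditions, 3 members were called higher (Dusp6, Spry2 and Spred1), against 5.34% of all genes. Without cold-acclimated replicate 3 alone, 4 were (with Dusp2 added), against 3.75% of all genes. Without replicate 1, or without replicate 2, in both conditions, limma called 0 members and 0.00% of all genes. At an unadjusted p under 0.05 the members higher then numbered 2 (Dusp4 and Spred1) and 0, and the genes higher 400 and 380. With both the replicate block and median of ratios scaling, 5 members were called higher, against 9.23% of all genes: Dusp4, Dusp6, Spry2, Spred1 and Spred2. Which property of replicate 3 goes with this was not tested.

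Replicate 1 stood apart in another way. Non-acclimated replicate 1 was the highest of the 3 libraries at 37°C for 6 of the 9 members, namely all 6 Dusp genes, against 26.2% of all tested genes, while for Spry2, Spred1 and Spred2 another library was highest. It was also the highest at 37°C for 18 of the 30 tested genes of a list of ERK-responsive genes. Its partner, cold-acclimated replicate 1, was the highest at 26°C for 19 of these 30 genes, against 24.4% of all tested genes, and for 4 of the 9 members. Egr1, an immediate early transcription factor downstream of ERK, was at 333, 14.2 and 4.92 TPM at 37°C and at 128, 120 and 38.2 TPM at 26°C, and Fos, another, at 90.9, 6.98 and 2.44 TPM at 37°C and at 16.3, 11.4 and 10.4 TPM at 26°C. These 2 genes were chosen after their values were seen. The part of non-acclimated replicate 1 in the differences of the Dusp genes was not tested beyond the values without it. Without it the log2 fold change was -0.46 for Dusp1, 1.65 for Dusp4 and 0.17 for Dusp10.

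The order of the members by level was much the same in both conditions. By mean TPM, which is a level per length, it ran Dusp6, Dusp4, Dusp5, Spry2, Dusp2, Dusp1, Spred1, Dusp10, Spred2 at 37°C, and Spred1 and Dusp1 changed places at 26°C. At 37°C the ranges of the 3 libraries were apart between Dusp6 and Dusp4, Dusp5 and Spry2, and Dusp10 and Spred2. At 26°C they were apart between Dusp6 and Dusp4, Dusp4 and Dusp5, and Spred1 and Dusp1. Spred2 was apart from Spry1, at 0, in both conditions, and all other neighbours overlapped. Summed over the members, the level was 764, 451 and 587 TPM at 37°C and 1239, 1252 and 689 TPM at 26°C, of which Dusp6 made up between 61.1% and 75.5%.

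The promoters of 9 members were in the RefSeq table (build GRCm38.p6), and an exact match placed each once on GRCm39. Dusp4 had no entry. The 250 bases before the start were searched on both strands for the cAMP response element TGACGTCA, its core TGACG, which the full element holds on both strands, the CArG box bound by serum response factor, and GAANNTTC, a part of the heat shock element. The full element was found in 1.55% of all 32851 promoters and in 1 member, the core in 17.8% and in 3, the CArG box in 1.47% and in 1, and the heat shock letters in 6.69% and in 0. A match is a description of letters and not of binding. For Dusp6 and Spry2 the RefSeq start lay 417 and 306 bases inside the gene as listed, so the searched bases lay within it. Stretches of 200 bases that end 50 bases before the start are shown for Spred1, which was called higher, for Dusp1, whose levels lay lower at 26°C, and for Dusp5, whose levels overlapped throughout. Capitals mark the cAMP response elements and cores and the CArG boxes. They lie on GRCm39 at chr2:116951302-116951501 (plus strand) for Spred1, chr17:26727497-26727696 (minus strand) for Dusp1 and chr19:53517326-53517525 (plus strand) for Dusp5.
Spred1: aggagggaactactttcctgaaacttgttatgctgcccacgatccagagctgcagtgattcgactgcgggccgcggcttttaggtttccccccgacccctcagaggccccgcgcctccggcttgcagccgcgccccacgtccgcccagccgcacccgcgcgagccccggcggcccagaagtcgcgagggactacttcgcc
Dusp1: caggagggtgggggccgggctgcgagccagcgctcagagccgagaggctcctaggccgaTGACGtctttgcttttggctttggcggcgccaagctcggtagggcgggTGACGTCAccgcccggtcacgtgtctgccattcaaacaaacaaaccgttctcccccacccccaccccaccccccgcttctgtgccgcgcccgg
Dusp5: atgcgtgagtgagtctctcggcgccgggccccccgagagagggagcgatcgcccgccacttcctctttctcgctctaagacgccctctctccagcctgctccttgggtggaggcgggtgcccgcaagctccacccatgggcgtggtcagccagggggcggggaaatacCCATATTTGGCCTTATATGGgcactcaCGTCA
Spred1 held none of the searched letters in this window. Dusp1 held a full cAMP response element 143 bases before the start and a further core at 191 bases. Dusp5 held 2 adjoining CArG boxes at 82 and 72 bases and a core at 55 bases. Spred2, not shown, held a core at 51 bases.

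The genes whose pattern over the 6 libraries was most like a member's were taken by Pearson's correlation of log2(TPM + 1), which describes 6 points that share a line and a paired design. For Spred1 they were Ankrd10 (r = 0.997) and Stat5a (0.996), and 130 genes had r over 0.95. Stat5a, a transcription factor activated by IL-2, was at 43.3, 49.5 and 67.6 TPM at 37°C and at 97.8, 121 and 91.6 TPM at 26°C. For Dusp6 they were Gm24523 (0.996) and Ube2q2 (0.992), for Dusp4 the ribosomal protein genes Rps23 (0.989) and Rps6 (0.979), and for Dusp2 Gdap10 (0.996) and the ribosomal protein gene Rpl19 (0.994). For Spry2 they were Vat1 (0.994) and E2f5 (0.993), for Spred2 Acsbg3 (0.992) and Rnmt (0.987), and for Dusp5 Gm11100 (0.990) and Snrpg (0.988). Dusp1 was closest to Ift20 (0.986) and Entrep2 (0.982). Dusp10 had the weakest neighbours, Cep120 (0.966) and Gm35624 (0.963), and only 6 genes with r over 0.95.

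The other Dusp, Spry and Spred genes numbered 19, of which 10 were tested. Of these, 0 were called higher, against 2.63% of all tested genes, and 2 lower, against 16.0%. Their median log2 fold change was -0.51. At an unadjusted p under 0.05 limma found 1 higher, Dusp11, against 7.75% of all genes, and voom called 0 higher, against 3.34%. Dusp19 fell by 2.39 (limma adjusted p = 0.012) and Dusp12 fell by 1.32 (0.017) on the log2 scale. After median of ratios scaling Dusp19 was still called and Dusp12 (-0.92, limma adjusted p = 0.040) was not. Both are atypical phosphatases. Among the others with a mean of at least 10 TPM, Dusp7, a close relative of Dusp6, was at 37.9, 44.8 and 74.4 TPM at 37°C and at 128, 121 and 45.6 TPM at 26°C (log2 fold change 0.81, limma adjusted p = 0.227). Dusp16, a phosphatase of JNK and p38, gave 0.97 (0.213), and Dusp11, an RNA phosphatase, gave 0.69 (0.107).

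The cascade that the members restrain had a median near that of all genes. Of 30 genes from adaptors to ERK, 26 were tested. Without rescaling, 0 of these were called higher by limma or voom, against 2.63% and 3.34% of all tested genes. Limma called 3 lower (11.5%), against 16.0% of all tested genes, and the median log2 fold change was -0.42. At an unadjusted p under 0.05 limma found 1 higher, against 7.75% of all genes. It was Sos2, a Ras activator named outside the rule for its p. Ksr1, the scaffold that holds Raf, MEK and ERK together, was at 15.4, 19.1 and 13.2 TPM at 37°C and at 2.77, 2.16 and 2.78 TPM at 26°C, and fell by 2.23 (limma adjusted p = 0.0068). Map2k1, which encodes MEK1, fell by 1.18 (0.027) and Ptpn11, the phosphatase SHP2 that promotes Ras activation, fell by 1.15 (0.021). With the replicate block, limma called 5 genes of the cascade lower, against 21.9% of all tested genes. After median of ratios scaling Ksr1 was called and Map2k1 (-0.77, 0.074) and Ptpn11 (-0.75, 0.052) were not. Sos2 was then called higher (1.20, limma adjusted p = 0.037), as were 840 of all 12227 tested genes.

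Without rescaling, other inhibitors of Ras and ERK had 0 genes called higher by limma or voom, against 2.63% and 3.34% of all genes. At an unadjusted p under 0.05 limma found 2 higher, against 7.75% of all genes. These were Rasa2 and Cbl, which are likewise named outside the rule. Of 15 such genes, 13 were tested and 2 were called lower (15.4%, against 16.0% of all tested genes), with a median log2 fold change of -0.03. The 2 were Rasa3, a Ras and Rap GTPase-activating protein, which fell by 2.16 (limma adjusted p = 0.011), and Lztr1, which directs Ras proteins to ubiquitination and fell by 1.63 (0.0092). After median of ratios scaling both were still called lower. Cbl was then called higher (1.06, limma adjusted p = 0.040), as were 840 of all 12227 tested genes. In the p38 and JNK cascade, the other target of Dusp1 and Dusp10, 23 of 26 genes were tested. Of these, 1 was called higher (4.35%, against 2.63% of all tested genes) and 4 lower (17.4%, against 16.0%), with a median of -0.31. Tab3, an adaptor of the kinase TAK1, rose by 1.16 (0.019), and the kinases Map3k1, Map3k4, Taok3 and Map3k5 fell by 3.42 (0.0067), 1.48 (0.019), 1.22 (0.020) and 1.21 (0.024). After median of ratios scaling Map3k1 and Map3k4 were still called lower. Taok3 (-0.82, limma adjusted p = 0.047) and Map3k5 (-0.84, 0.083) were not.

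**Figure D3:**
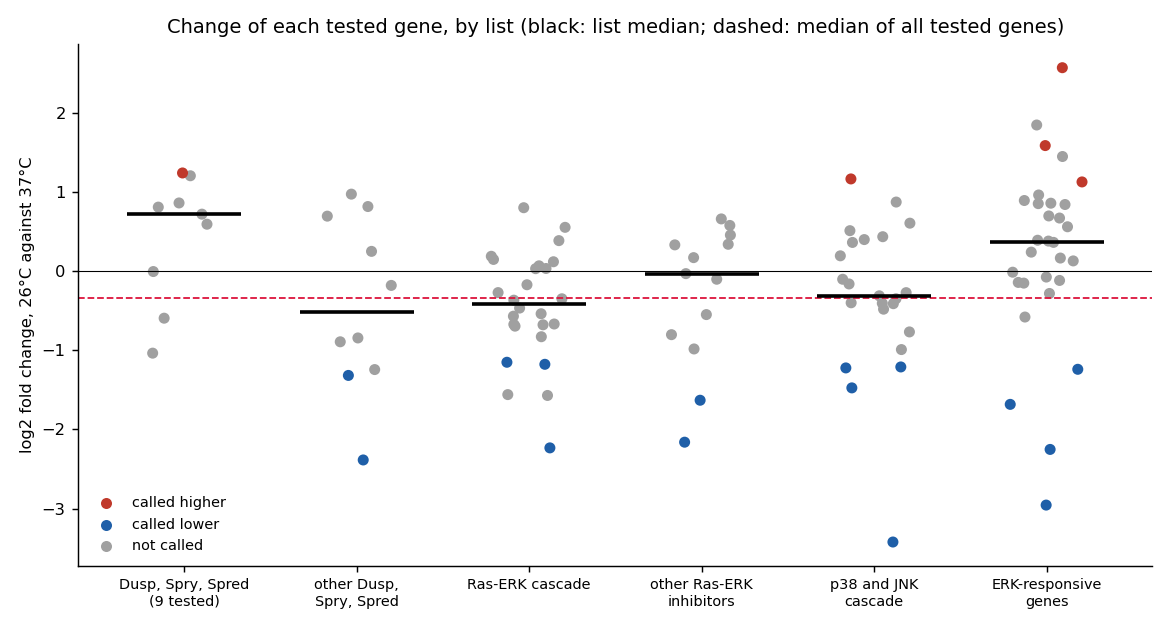
Log2 fold change (26°C against 37°C, log2(TPM + 1) scale) of every tested gene in 6 lists, with the list median as a black line and the median of all tested genes as a dashed line. The members' median is 0.72, the ERK-responsive genes' 0.37, and the other 4 lists lie between -0.51 and -0.03.

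The ERK-responsive genes, many of them induced by the same signals as the members, gave calls in both directions. Of 37 genes, 30 were tested. Limma called 3 higher (10%, against 2.63% of all tested genes) and 4 lower (13.3%, against 16.0%), with a median log2 fold change of 0.37. Etv5, an Ets factor that follows ERK activity in many tissues, was at 2.37, 3.34 and 3.73 TPM at 37°C and at 49.2, 39.4 and 6.11 TPM at 26°C, and rose by 2.57 (limma adjusted p = 0.039). As for Dusp6 and Spry2, its level at 26°C was lowest in replicate 3. Maff and Csrnp1, transcription factors of the early response, rose by 1.58 (0.022) and 1.13 (0.034). Btg2, an antiproliferative early gene, fell by 2.95 (0.0070), the Ets factor Elk3 fell by 2.25 (0.0074), the nuclear receptor Nr4a2 fell by 1.68 (0.017) and Zfp36, which destabilises cytokine mRNA, fell by 1.24 (0.048). After median of ratios scaling Zfp36 was not called (-0.83, limma adjusted p = 0.167). Without a filter on low values 0 of these genes were called higher in limma. Of the 19 genes called in these lists, Ksr1, Map3k1, Btg2 and Elk3 kept the call with each of the 6 libraries left out in turn, and the other 15 lost it without at least 1 library, with a highest limma adjusted p between 0.052 and 0.127. Zfp36 lost the call whichever of the 6 libraries was left out. Etv5 and Csrnp1 lost it for 5 of the 6 libraries, and Maff for 3.

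**Figure D4:**
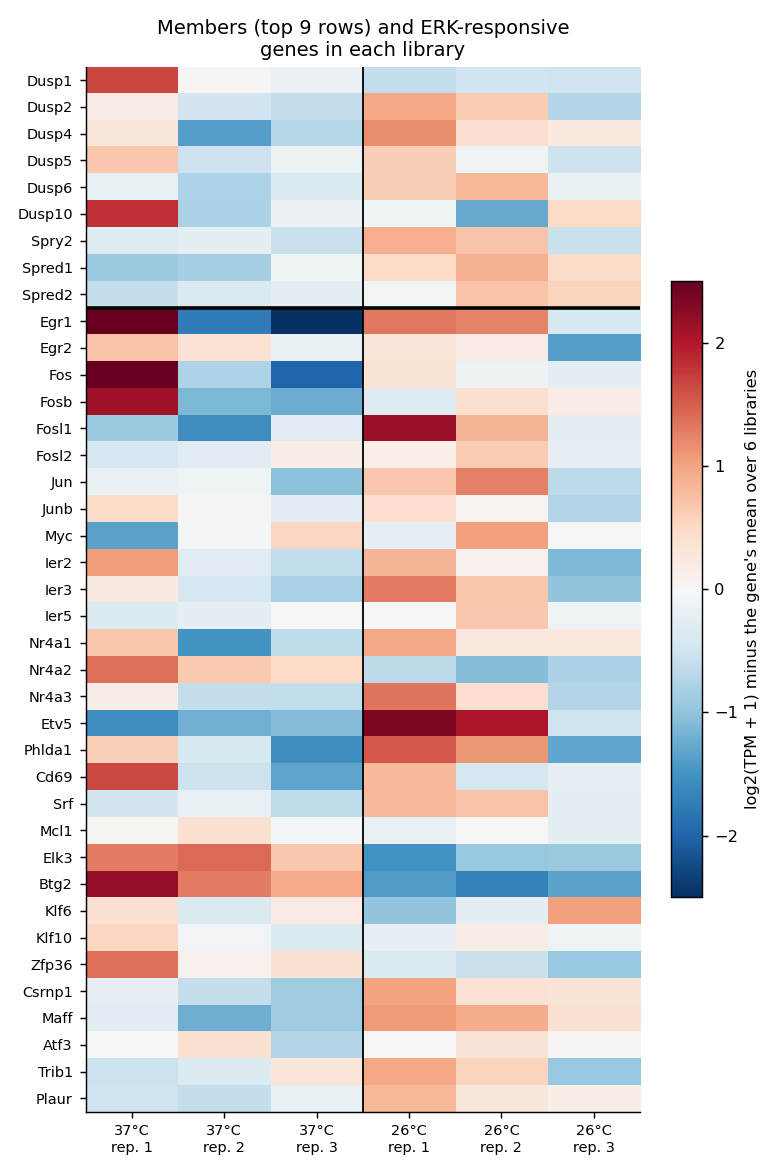
Level of the 9 tested members (above the black line) and the 30 tested ERK-responsive genes in each library, as log2(TPM + 1) minus the gene's mean over the 6 libraries; red is above and blue below that mean, and the colour scale stops at 2.5 on either side. Non-acclimated replicate 1 is the highest 37°C library for 6 of the 9 members and 18 of the 30 ERK-responsive genes.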

How the data were processed

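Expression was analysed in 6 poly(A)+ libraries of D10 T cells (3 per condition). According to the methods and the submitters' processing notes, the authors checked reads with FastQC 0.11.7, trimmed them with Trimmomatic 0.38, aligned them to GRCm39 with HISAT2 2.1.0, and counted them per gene with featureCounts 1.6.3. The deposited values are TPM, in which counts are divided by gene length and each library is scaled to 1000000. Neither the annotation release nor the gene lengths are named in the sources used here. Read numbers were recovered from the steps of the deposited TPM and were whole within 0.02 reads for 100% of the 21195 genes above 0.

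Genes with a mean of at least 1 TPM were fitted by limma (3.58.1, R 4.3.3) after transformation to log2(TPM + 1), using a trended prior variance and Benjamini-Hochberg adjustment over all 12227 genes; TPM are not counts, so a count test was not the main one. Fold changes on this scale understate the change of low genes, and p-values measure the spread between these samples only. The scripts were tested on simulated data with larger changes than those of the members and without a replicate effect, so that test does not measure their power here. Ratios were compared in scipy 1.17.1 under Python 3.11.15, with tables handled by pandas 2.3.3 and numpy 2.4.6 and figures by matplotlib 3.10.9.

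Deviations from the condition means correlated across genes at 0.480, 0.503 and 0.512 between libraries with the same replicate number and at -0.41 to 0.02 otherwise, so the numbers pair the libraries. Alternatives were a pseudocount of 0.1, no filter, median of ratios scaling, quantile normalization, a replicate block, voom on the recovered reads and leaving out each library. Leaving out replicate 1, 2 or 3 in both conditions, and the block with median of ratios scaling, were chosen after seeing the data.

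The members and lists were chosen with earlier results of these data known. Genes named are the 10 members, up to 4 called genes per list and direction with the smallest p, the 2 genes most like each tested member, Mapk3, Nf1, and other family genes with a mean of at least 10 TPM. Cell type markers are named as well, and genes outside this rule are marked where they appear. Some genes that this rule takes are not reported here.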

Additional observations from a re-analysis of the deposited data

How the results depend on the processing

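Calls of members depended on the processing more than their direction did. Of 144 comparisons of a member with an alternative, 113 kept the direction and the side of the thresholds, 13 gained a call, 7 lost one and 11 turned direction. The turns were in Dusp5 (0.40 with median of ratios scaling, with and without the block, 0.29 with quantile normalization, 0.13 with voom, 0.18 without replicate 3 and 0.0228 without replicate 1 in both conditions, and -0.31 to 0.33 when 1 library was left out) and in Dusp10 (0.17 without non-acclimated replicate 1, within -1.13 to 0.17, and 0.0724 without replicate 1 in both conditions). The replicate block changed the call of 1 member, Dusp4. Scaling decided how the calls split: 14.1% of all calls were higher as deposited, 44.4% with median of ratios scaling and 48.9% with quantile normalization. The cause of these shifts was not tested.

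Of members, 1 was called higher, 0 with no filter, 2 with median of ratios scaling, quantile normalization, the block or voom, 3 without replicate 3 in both conditions, 5 with the block and median of ratios scaling, and 0 to 4 with 1 library left out (0 lower throughout). Over all genes, 321 higher and 1954 lower became 184 and 1121 with no filter, 840 and 1052 with median of ratios scaling, 731 and 765 with quantile normalization, 653 and 3088 without replicate 3 in both conditions, 1129 higher with the block and median of ratios scaling, and 59 to 459 and 345 to 2725 with 1 library left out. Without replicate 1, or without replicate 2, in both conditions, limma called 0 genes in either direction, over all genes, members and each list, with 400 and 380 genes higher and 2010 and 1849 lower at an unadjusted p under 0.05. With median of ratios scaling, the cascade had 1 higher and 1 lower, other inhibitors 1 higher, the other family genes 1 higher and 1 lower, the p38 and JNK cascade 2 higher and 2 lower, and ERK-responsive genes 5 higher. With quantile normalization these were 2 and 1, 2 higher, 1 lower, 1 lower for p38 and JNK, and 5 and 2. With the block the cascade had 5 lower, and with voom p38 and JNK had 2 higher. Without replicate 3 in both conditions the cascade had 1 higher and 5 lower, the other family genes 1 higher, p38 and JNK 2 higher, and ERK-responsive genes 8 higher. With the block and median of ratios scaling the counts were 1 higher for the cascade, 1 higher for other inhibitors, 2 and 1 for the other family genes, 2 and 2 for p38 and JNK, and 9 higher for ERK-responsive genes, which had 0 higher with no filter. With 1 library left out, higher and lower calls ranged over 0 to 1 and 1 to 5 (cascade), 0 and 0 to 2 (other inhibitors), 0 to 1 and 0 to 3 (other family), 0 to 2 and 1 to 5 (p38 and JNK), and 0 to 7 and 2 to 3 (ERK-responsive). Depth limits least where reads are many: the 9 members above 0 held 98 or more reads in every library.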
